A study of Mus musculus with 18 samples.

Results

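The reelin signalling pathway and the transcription factors of Cajal-Retzius cells were followed by 7 genes of the mouse: Reln, Vldlr, Lrp8, Dab1, Trp73, Lhx1 and Lhx5. They were chosen by symbol, and each symbol matched 1 of the 54446 genes in the count table. The rule uses no measured value, but earlier results of these data were known when it was written. The 18 libraries came from 6 CD-1 mice, an outbred stock, with 1 library for each of 3 dissected layers: layers 2-3 (L2-3), layer 4 (L4) and layers 5-6 (L5-6). All mice had plasmid brought into the wall of the ventricle by in utero electroporation at E14.5 (embryonic age in days), and all were dissected at postnatal day 7. The 3 GFP mice received, per the labels, empty plasmid with Gfp cDNA. Of the 3 FOXP2 mice, 2 carry the label huFOXP2 (human FOXP2 cDNA with Gfp) and 1 the label moFoxp2 (mouse Foxp2 cDNA with Gfp). The labels give the L4 cells as GFP-positive and those of both other dissections as GFP-negative, and they call L2-3 infragranular although it lies above layer 4. The sources used here do not give the promoter of the plasmids, the litters or the share of electroporated cells. No dissection is labelled layer 1, and the pieces hold all cells of the layer, so fewer cells of a type and less RNA per cell cannot be told apart.

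Reelin is a large secreted glycoprotein that guides the placing of neurons in the cortex. It binds the lipoprotein receptors VLDLR and APOER2 (encoded by Lrp8) on migrating neurons, the receptors bind the intracellular adaptor DAB1, and Src-family kinases then phosphorylate DAB1. In the developing cortex reelin is made mainly by Cajal-Retzius cells, which lie in the marginal zone (the later layer 1) just below the meninges and mostly disappear after birth, and later by interneurons. Trp73 (p73), Lhx1 and Lhx5 encode transcription factors known as marks of Cajal-Retzius cells.

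Library totals ranged from 10111149 to 23404528 counts. Foxp2, the electroporated gene, was at 20.3 to 51.5 CPM (read counts scaled to the size of the library with TMM factors) in L2-3 of the FOXP2 mice against 1.76 to 6.62 CPM in the GFP mice. In L4 it was at 33.4 to 64.9 CPM against 5.42 to 8.61 CPM, and in L5-6, where neurons normally express it, at 39.7 to 77.9 CPM against 52.7 to 68.6 CPM. The L2-3 pieces of the FOXP2 mice thus held more Foxp2 RNA than those of the GFP mice, although the labels call their cells GFP-negative. Layer 5-6 marker genes were highest in the L5-6 libraries (10 of 10 tested rose against both other layers). The 7 layer 2-3 markers did not mark L2-3 off from L4 over all mice: 0 were called lower and 1 higher in L4. Their sums went opposite ways in the groups of mice. In the FOXP2 mice they summed to 1411 to 1507 CPM in L4 against 1058 to 1101 CPM in L2-3. The GFP mice had 1245 to 1410 CPM in L4 against 1416 to 1573 CPM in L2-3. All 11 meningeal fibroblast markers were lower in L4 and in L5-6 than in L2-3.

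The promoters of Reln, Trp73 and Lhx1, 3 of the 4 genes that fell most steeply from L2-3 to L5-6, are shown because these genes move together across the layers. Sequences are the 250 bases before the transcription start in RefSeq (GRCm38.p6, the patch release of mm10), read 5′ to 3′ on the strand of the gene. Capitals mark a GC box (GGGCGG) or a CCAAT box (CCAAT) on either strand, so a CCAAT box on the other strand reads ATTGG. Reln lies on chr5:22344706-22344955 (minus strand), Lhx1 on chr11:84525535-84525784 (minus strand), and Trp73 has 2 entries, an internal start at chr4:154097174-154097423 and an upstream one at chr4:154139876-154140125 (minus strand).
Reln: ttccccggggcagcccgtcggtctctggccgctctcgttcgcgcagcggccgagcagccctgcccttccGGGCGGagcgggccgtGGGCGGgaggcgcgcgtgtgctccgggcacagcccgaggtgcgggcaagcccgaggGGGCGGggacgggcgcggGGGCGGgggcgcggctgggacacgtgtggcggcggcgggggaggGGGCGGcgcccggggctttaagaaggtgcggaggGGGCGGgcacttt
Trp73 internal: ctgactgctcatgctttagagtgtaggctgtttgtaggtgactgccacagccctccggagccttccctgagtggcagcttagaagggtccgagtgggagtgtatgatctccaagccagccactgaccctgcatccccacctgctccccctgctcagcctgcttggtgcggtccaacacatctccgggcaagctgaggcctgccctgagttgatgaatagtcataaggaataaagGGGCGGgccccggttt
Trp73 upstream: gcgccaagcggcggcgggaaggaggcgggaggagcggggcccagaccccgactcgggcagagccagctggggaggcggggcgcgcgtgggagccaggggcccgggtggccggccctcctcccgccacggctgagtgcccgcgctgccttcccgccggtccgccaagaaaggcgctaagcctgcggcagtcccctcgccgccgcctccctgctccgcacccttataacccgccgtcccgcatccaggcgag
Lhx1: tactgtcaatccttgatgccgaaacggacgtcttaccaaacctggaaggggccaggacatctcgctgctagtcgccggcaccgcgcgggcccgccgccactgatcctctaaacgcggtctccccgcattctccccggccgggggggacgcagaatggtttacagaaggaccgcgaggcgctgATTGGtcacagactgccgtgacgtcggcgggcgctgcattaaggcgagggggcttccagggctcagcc
The Reln promoter was 80.0% G and C and held 6 GC boxes, the internal Trp73 promoter held 1 GC box, the upstream Trp73 promoter none of either motif, and the Lhx1 promoter 1 CCAAT box. RefSeq promoters were found for 6 of the 7 genes (all but Lhx5), with 11 entries in all. A GC box occurred in 4 of these 11 and in 32.74% of all 32851 mouse promoters of the same length, and a CCAAT box in 3 of 11 and in 33.85%. The forkhead core TGTTTAC, searched on both strands, occurred in 0 of 11 and in 3.17% of all promoters. The homeodomain core TAATTA was found in 1 of 11 (4.84% of all), the TATA box TATAAA in 0 of 11 (12.37%) and the E-box CANNTG in 8 of 11 (66.22%). None of the printed sequences holds both a GC box and a CCAAT box, and a match describes the letters alone.

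Reln, the ligand, fell steadily from L2-3 to L5-6. The gene (ENSMUSG00000042453.14) spans chr5:21884454-22344702 on the minus strand of mm10. In L2-3 the lowest of the 6 mice had 165 CPM, the median was 416 CPM and the highest 602 CPM. The same values were 107, 208 and 237 CPM in L4 and 53.5, 133 and 156 CPM in L5-6. In each mouse L2-3 was the highest and L5-6 the lowest layer, so that 55.1% ± 5.43 (SD, n = 6) of a mouse's summed level lay in L2-3. The log2 fold change was -1.73 ± 0.12 (SE) for L5-6 over L2-3 (edgeR with mouse as a block, adjusted p = 7.51e-08), -0.97 ± 0.11 for L4 over L2-3 (adjusted p = 3.21e-05) and -0.75 ± 0.11 for L5-6 over L4 (adjusted p = 0.000317, and 0.0626 with no mouse block). The antisense gene Gm10475 shares 246 exon bases with Reln, and reads of the overlap cannot be assigned without strand, but that gene had 0 to 0.114 CPM in every library.

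The receptors and the adaptor had much flatter profiles, and they differed from one another. Vldlr (ENSMUSG00000024924.14, chr19:27216484-27254231, plus strand) was at 133 to 195 CPM in L2-3, 141 to 195 CPM in L4 and 106 to 141 CPM in L5-6. It was lower in L5-6 than in L4 (-0.58 ± 0.09, adjusted p = 0.000362) and than in L2-3 (-0.39 ± 0.09, adjusted p = 0.00315), each in all 6 mice, while L4 and L2-3 did not pass the test (0.19 ± 0.09, adjusted p = 0.114). Within the FOXP2 mice alone the fall from L2-3 to L5-6 was no longer called (-0.15, adjusted p = 0.115), and L4 was higher than L2-3 (0.39, adjusted p = 0.00120), where the GFP mice alone had -0.015. Lrp8 (ENSMUSG00000028613.14, chr4:107802261-107876840, plus strand) was the 1 gene of the 7 that was higher in the deep layers: 169 to 215 CPM in L2-3, 167 to 220 CPM in L4 and 196 to 233 CPM in L5-6. The rise from L2-3 to L5-6 was small but went the same way in 6 of 6 mice (0.16 ± 0.04, adjusted p = 0.0123). It was not called without the filter on low counts, without the mouse block or in the GFP mice alone (adjusted p up to 0.192).

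Dab1, the adaptor that both receptors use, had the profile of Reln in a shallower form. The gene (ENSMUSG00000028519.16, chr4:103619359-104744844, plus strand) was at 113 to 156 CPM in L2-3, 110 to 127 CPM in L4 and 87.8 to 108 CPM in L5-6. Its level fell by 0.50 ± 0.06 on the log2 scale from L2-3 to L5-6 (adjusted p = 2.47e-05), in 6 of 6 mice. The steps from L2-3 to L4 (-0.21 ± 0.06, adjusted p = 0.0174) and from L4 to L5-6 (-0.29 ± 0.06, adjusted p = 0.00376) passed the test as well. The first of these steps was not called in 5 of 12 alternatives, among them those without GFP mouse 2, GFP mouse 3 or huFOXP2 mouse 2 (adjusted p up to 0.164).

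**Figure D1:**
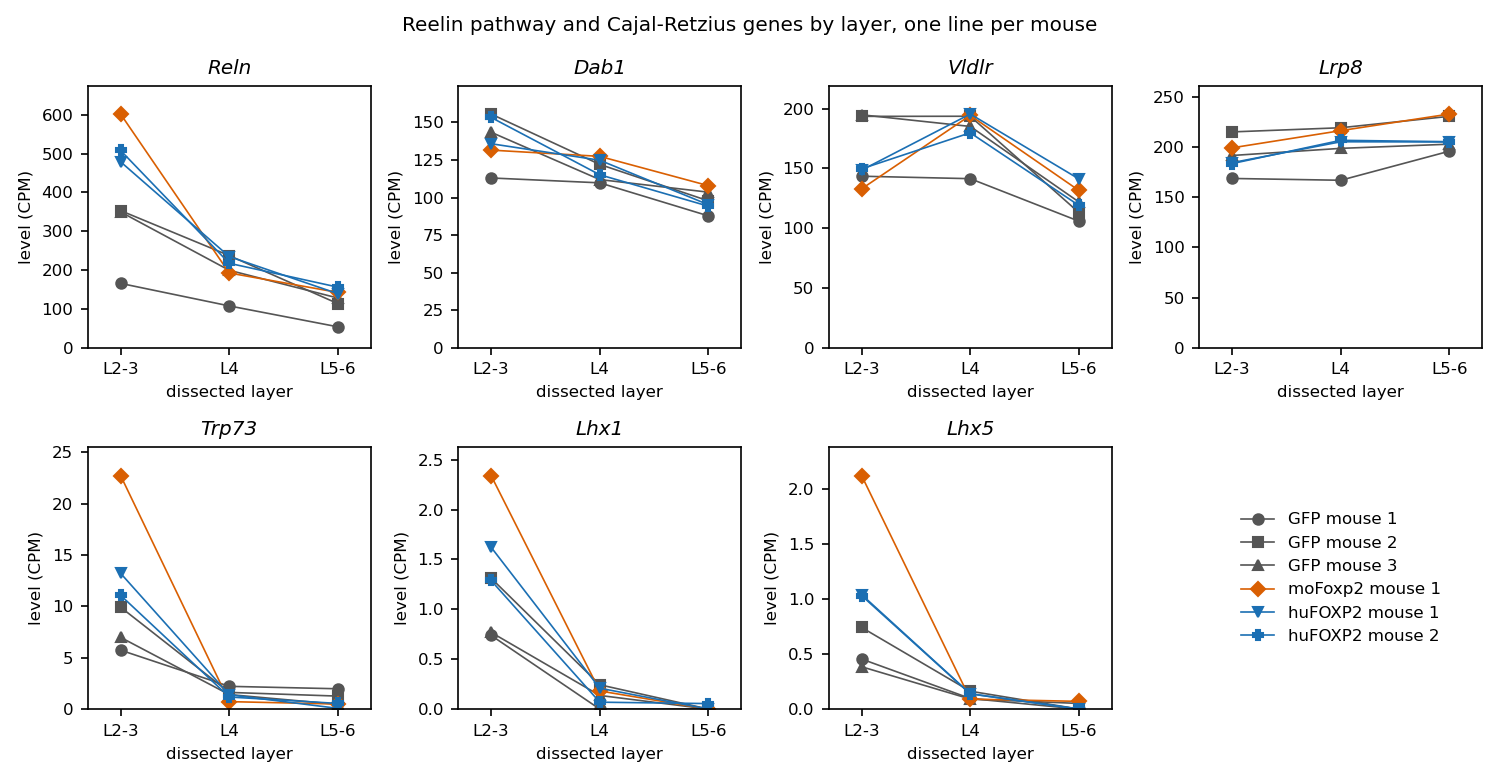
Level of each of the 7 genes in CPM (vertical axis, from 0) in the 3 dissected layers (horizontal axis), with 1 line and symbol per mouse and colours for GFP, moFoxp2 and huFOXP2. Reln, Trp73, Lhx1 and Lhx5 are highest in L2-3 in all 6 mice, while Vldlr, Lrp8 and Dab1 stay between 87.8 and 233 CPM in every layer.

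The 3 transcription factors were highest in the L2-3 pieces in all 6 mice. Trp73 (ENSMUSG00000029026.16, chr4:154056253-154140208, minus strand) had a lowest, median and highest value of 5.74, 10.5 and 22.7 CPM in L2-3, of 0.726, 1.40 and 2.21 CPM in L4 and of 0.0681, 0.520 and 1.98 CPM in L5-6. The groups of libraries did not overlap between L2-3 and either deeper layer. Trp73 fell by 2.93 ± 0.42 on the log2 scale from L2-3 to L4 (adjusted p = 0.000186) and by 3.82 ± 0.45 to L5-6 (adjusted p = 1.57e-05), while L5-6 against L4 did not pass the test (-0.89 ± 0.54, adjusted p = 0.210). Its antisense neighbour Trp73os shares 280 exon bases with it and was at 0.0908 CPM or less.

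Lhx1 (ENSMUSG00000018698.15, chr11:84518284-84525535, minus strand) had 134 counts in the 6 L2-3 libraries together, 12 in L4 and 1 in L5-6. That gives a ratio of L2-3 over L4 of 9.42 (95% counting interval 5.22 to 18.7), and over L5-6 of 136 (24.0 to 5416). Lhx5 (ENSMUSG00000029595.9, chr5:120431699-120441223, plus strand) had 93, 10 and 2 counts, a ratio of 7.85 (4.08 to 16.9) over L4 and of 47.2 (12.7 to 396) over L5-6. These intervals cover counting error only. Both genes were called lower in L4 than in L2-3 (adjusted p = 2.13e-05 for Lhx1 and 9.65e-05 for Lhx5) and in L5-6 than in L2-3 (3.12e-07 and 1.87e-06), in 6 of 6 mice. They reached the level of the filter on low counts in L2-3 libraries only, so these calls add nothing to the counts above. For the same reason their fitted fold changes and the test of L5-6 against L4 are not given. The antisense gene Gm27199 shares 69 exon bases with Lhx5 and reached 0.293 CPM in L2-3 of the moFoxp2 mouse, where Lhx5 had 2.12 CPM.

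Counted over the 5 genes other than Lhx1 and Lhx5, L5-6 against L2-3 gave 1 higher and 4 lower, where 38.1% of the 15952 genes tested were called (18.9% higher and 19.3% lower). L4 against L2-3 gave 0 higher and 3 lower (35.3% of all genes called, 19.1% lower), and L5-6 against L4 gave 0 higher and 3 lower (34.8%, 16.2% lower).

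The other genes on the list of 13 Cajal-Retzius markers did not move alike. Ebf3 and Nhlh2, transcription factors of these cells, followed Trp73: Ebf3 was at 3.26 ± 1.19 CPM (SD, n = 6) in L2-3, 0.652 ± 0.227 in L4 and 0.305 ± 0.157 in L5-6, and Nhlh2 at 4.01 ± 1.94, 0.670 ± 0.148 and 0.377 ± 0.148 CPM. Both were called lower in each deeper layer than in L2-3. Neither reached the filter level in L5-6, so the calls that involve L5-6 add nothing to the levels above. The calls of L4 against L2-3 rested on few reads in L4, in part under the filter level. These were 6 to 14 counts per library for Ebf3 and 5 to 13 for Nhlh2. Tbr1, a transcription factor that deep-layer projection neurons also express, went the other way (1.23 ± 0.11 for L5-6 over L2-3, adjusted p = 1.16e-06), as did Cacna2d2, a calcium channel subunit (0.32 ± 0.09, adjusted p = 0.0106). Calb2 (calretinin, also an interneuron gene) was highest in L4 (0.74 ± 0.22 over L2-3, adjusted p = 0.0173). Cxcr4, a chemokine receptor, was lower in L4 than in L2-3 (-0.90 ± 0.19, adjusted p = 0.00263). Ebf2, Barhl2 and Eomes had too few counts for the layer tests, with at most 1.20, 0.541 and 2.42 CPM in any library. Of the 10 markers tested, 6 were called lower and 2 higher in L5-6 than in L2-3, against 19.3% and 18.9% of all genes. The 6 include Lhx1, Lhx5, Ebf3 and Nhlh2, which did not reach the filter level in L5-6, so their calls add nothing. The list did not follow the layers as a whole, and neither did its transcription factors.

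The shares of each gene over the layers put Reln between the transcription factors and the receptors. Lhx1 had 90.3% ± 5.81 of a mouse's summed CPM in L2-3, Lhx5 84.5% ± 6.94 and Trp73 80.9% ± 13.1 (SD, n = 6), the last from 57.8% to 94.9%. Nhlh2 and Ebf3 had 77.7% ± 5.52 and 76.9% ± 7.27. Reln had 55.1%, Dab1 39.02% ± 2.65, Vldlr 34.5% ± 4.20 and Lrp8 31.5% ± 0.740. The 14 interneuron markers moved both ways, 5 higher and 5 lower in L5-6 than in L2-3, and Gad1, a general marker that makes the transmitter GABA, was not called (-0.14 ± 0.07, adjusted p = 0.139). The 2 with the largest differences were opposite. Ndnf, which marks interneurons of layer 1, fell from 92.8 ± 37.2 CPM in L2-3 to 18.1 ± 5.00 in L4 and 7.45 ± 1.86 in L5-6. Sst (somatostatin), a gene of deep interneurons that can also make reelin, rose from 21.5 ± 3.92 to 39.4 ± 6.497 and 90.4 ± 17.8 CPM. Both changes passed the test between every pair of layers (largest adjusted p = 0.00180). Reln thus kept 16.8% ± 1.31 of its level in L5-6, where Lhx1 kept 0.649% ± 1.59, and the part that interneurons and Cajal-Retzius cells had in the Reln level was not tested. The summed level of the 11 meningeal markers also lay in L2-3: 418 to 4431 CPM there against 51.2 to 131 CPM in L4 and 61.0 to 122 CPM in L5-6.

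**Figure D2:**
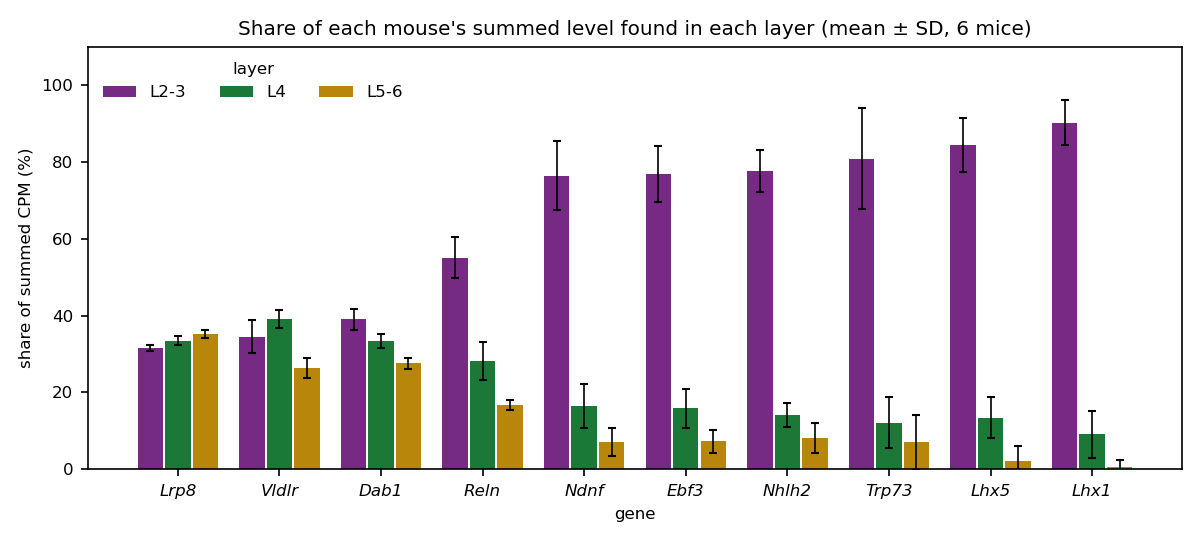
Share of each mouse's CPM, summed over its 3 layers, that lay in L2-3, L4 and L5-6 (vertical axis in %, bars are means and error bars SD over 6 mice) for the members and 3 further genes. The L2-3 share rises from 31.5% for Lrp8 through 55.1% for Reln to 90.3% for Lhx1.

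Per kilobase of exon, the place of the ligand in L2-3 differed between the groups of mice. In the GFP mice Reln had 12.2 ± 4.52 CPM per kilobase (SD, n = 3), below Lrp8 (18.3 ± 2.21), Vldlr (17.6 ± 2.91) and Dab1 (17.4 ± 2.78). In the FOXP2 mice Reln had 22.3 ± 2.71, above Lrp8 (18.002 ± 0.841), Dab1 (17.7 ± 1.46) and Vldlr (14.3 ± 0.931). Reln stood at 6.97 to 14.9 in the GFP mice and at 20.2 to 25.3 in the FOXP2 mice, where the highest Dab1 level was 19.4. Over all 6 mice Trp73 was at 2.10 ± 1.10, Lhx5 at 0.358 ± 0.235 and Lhx1 at 0.330 ± 0.146, and Lhx5 stood above Lhx1 in 2 of 6, so that this last pair did not differ beyond its spread. In L4 the order of the means over 6 mice was Lrp8 (19.3), Vldlr (18.04), Dab1 (14.99) and Reln (8.34), and each of these steps held in 6 of 6 mice. In L5-6 it was Lrp8 (20.2), Dab1 (12.4), Vldlr (12.1) and Reln (5.13), where Dab1 stood above Vldlr in 5 of 6 mice. Reads of transcripts with other exons than the annotated union would shift these levels.

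The wider pathway was spread over both directions across the layers, on 3 lists with 51 genes. Between L5-6 and L2-3, 9 of the 51 were higher and 12 lower, with a median log2 fold change of -0.06 against 0.00 over all genes tested, of which 38.1% were called. Among receptor-proximal and cytoskeletal genes, Fyn, a Src-family kinase that phosphorylates DAB1, was higher in L5-6 (0.32 ± 0.08, adjusted p = 0.00672), as were the actin regulator Limk1 (0.38 ± 0.07, adjusted p = 0.000372) and N-cadherin (Cdh2, 0.34 ± 0.06, adjusted p = 0.000487). Doublecortin (Dcx), a microtubule protein of migrating neurons, was lower (-0.62 ± 0.11, adjusted p = 0.000389). The kinase Akt1 (-0.37 ± 0.05, adjusted p = 3.02e-05) and tau (Mapt, -0.37 ± 0.07, adjusted p = 0.00137) fell as well.

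Genes that cut reelin or remove its receptors moved in both directions. Adamts4, a metalloproteinase that can cleave reelin, was at 15.6 ± 10.3 CPM in L5-6 against 3.40 ± 1.30 in L2-3 (2.08 ± 0.35, adjusted p = 0.000309). Adamts2, a protease with the same substrate, was at 5.14 ± 0.934 CPM against 16.5 ± 12.2 (-1.43 ± 0.29, adjusted p = 0.00143). Plat (tissue plasminogen activator), which can cut reelin as well, was lower in L5-6 (-0.70 ± 0.16, adjusted p = 0.00284). Mylip (IDOL), a ubiquitin ligase that degrades both receptors, was lower in L5-6 (-0.83 ± 0.13, adjusted p = 0.000160). Socs6, whose product belongs to a family that targets DAB1 for degradation, was higher (0.65 ± 0.09, adjusted p = 7.28e-05). Of the other ligands of the receptors, Spon1 (F-spondin) was higher in L5-6 (0.87 ± 0.11, adjusted p = 2.24e-05). Clu (clusterin) was called higher as well (0.40 ± 0.14, adjusted p = 0.0343), but it rose in only 4 of 6 mice. Its mean log2 ratio of L5-6 over L2-3 was 0.80 in the GFP mice and 0.02 in the FOXP2 mice. Thbs1 (thrombospondin-1) was lower (-1.21 ± 0.15, adjusted p = 1.86e-05).

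Against L2-3, L4 had 11 of the 51 genes higher and 12 lower, where 35.3% of all genes were called. The higher ones included Pafah1b1 (Lis1, a dynein regulator, 0.35 ± 0.08, adjusted p = 0.00417) and Gsk3b, a kinase that acts on tau (0.31 ± 0.07, adjusted p = 0.00548). The lower ones included Adamts2 (-2.95 ± 0.33, adjusted p = 2.67e-05), Plat (-1.13 ± 0.16, adjusted p = 0.000155), integrin beta 1 (Itgb1, -0.79 ± 0.13, adjusted p = 0.000412) and Apoe, the lipoprotein that shares the receptors (-0.57 ± 0.15, adjusted p = 0.00819). Between L5-6 and L4, 13 were higher and 16 lower, where 34.8% of all genes were called. Adamts4 (2.57 ± 0.36, adjusted p = 0.000210) and Notch1 (0.85 ± 0.19, adjusted p = 0.00472) were among those higher in L5-6, and Cdk5r1 (p35, an activator of Cdk5, -0.50 ± 0.07, adjusted p = 0.000250) and Dcx (-0.71 ± 0.11, adjusted p = 0.000316) among those lower.

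**Figure D3:**
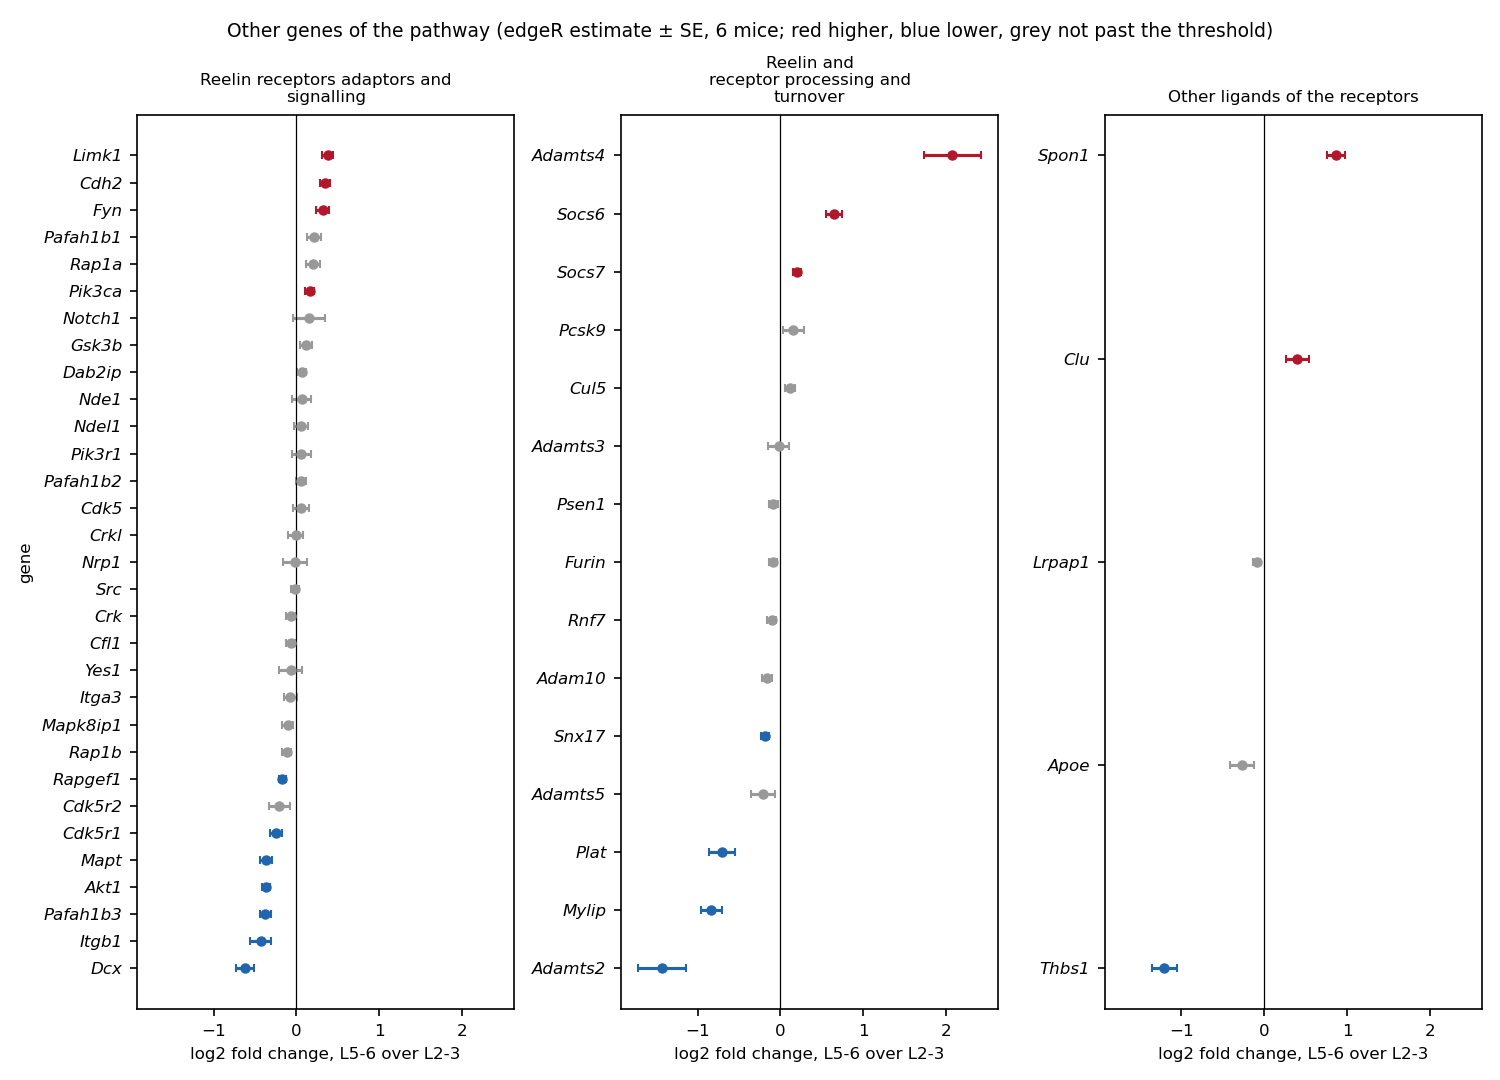
Log2 fold change of L5-6 over L2-3 (horizontal axis, points are edgeR estimates and bars SE) for the 51 other pathway genes in 3 lists, in red where higher, blue where lower and grey where the test was not passed. 9 genes are higher and 12 lower, from Adamts4 at 2.08 to Adamts2 at -1.43.

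The FOXP2 mice were set against the GFP mice layer by layer. In L2-3 the ligand and the transcription factors stood higher in the FOXP2 mice, but none of the 7 genes passed the test across all genes. Reln had 165, 353 and 350 CPM in GFP mice 1 to 3, 602 CPM in the moFoxp2 mouse and 479 and 508 CPM in huFOXP2 mice 1 and 2. Every FOXP2 mouse lay above every GFP mouse, and GFP mouse 1 stood far below the others. The log2 fold change was 0.88 ± 0.26 (edgeR, adjusted p = 0.169).

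Trp73 had 5.74, 9.93 and 6.99 CPM in the GFP mice, 22.7 CPM in the moFoxp2 mouse and 13.2 and 11.1 CPM in the huFOXP2 mice. The groups did not overlap, with the moFoxp2 mouse highest, and the log2 fold change was 1.06 ± 0.29 (adjusted p = 0.138). Lhx5 had 0.455, 0.742 and 0.385 CPM, then 2.12 CPM, and then 1.04 and 1.03 CPM in the same order (1.37 ± 0.43, adjusted p = 0.171), on 27 counts in the GFP and 66 in the FOXP2 libraries. Its groups did not overlap either, but it reached the filter level in 1 GFP library and all 3 FOXP2 libraries. Lhx1 had 0.739, 1.31 and 0.769 CPM, then 2.34 CPM, and then 1.62 and 1.29 CPM (0.89 ± 0.35, adjusted p = 0.271). Here huFOXP2 mouse 2 fell below GFP mouse 2, so the groups overlapped.

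The receptors and the adaptor were not higher in L2-3 of the FOXP2 mice. Vldlr had 143, 194 and 195 CPM in the GFP mice, 133 CPM in the moFoxp2 mouse and 148 and 150 CPM in the huFOXP2 mice. GFP mice 2 and 3 lay above all others and GFP mouse 1 among the FOXP2 mice, with a log2 fold change of -0.30 ± 0.13 (adjusted p = 0.299). Dab1 (0.03 ± 0.13, adjusted p = 0.925) and Lrp8 (-0.02 ± 0.10, adjusted p = 0.954) had estimates near 0, whose sign changed when single mice were left out.

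In L2-3, 0 of the 7 genes passed the adjusted threshold in edgeR, where 0.131% of 15241 genes did. Unadjusted p-values were under 0.05 for 5 of the 7 (4 higher and Vldlr lower, Lhx5 among the 4), against 15.8% of all genes. DESeq2 called 2 of them, Reln (adjusted p = 0.0174) and Trp73 (0.0221), where it called 713 genes or 4.69% of all. FOXP2 mice lay above GFP mice without overlap for 3 of the 7 (Reln, Trp73 and Lhx5), against 11.6% of all genes. Lhx5 reached the filter level mainly in FOXP2 libraries, so it adds nothing to this count or to that of the unadjusted p-values. Leaving out GFP mouse 1, which had the lowest Reln level in all 3 layers, brought Reln (0.61, adjusted p = 0.0427) and Vldlr (-0.42, adjusted p = 0.0491) past the threshold, with 2.47% of all genes. With the 2 huFOXP2 mice alone the edgeR log2 fold changes were 0.78 for Reln (adjusted p = 0.388) and 0.69 for Trp73 (0.310). They were 0.88 and 1.06 with the moFoxp2 mouse, the only one with its construct. The moFoxp2 construct cannot be told apart from that 1 mouse.

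**Figure D4:**
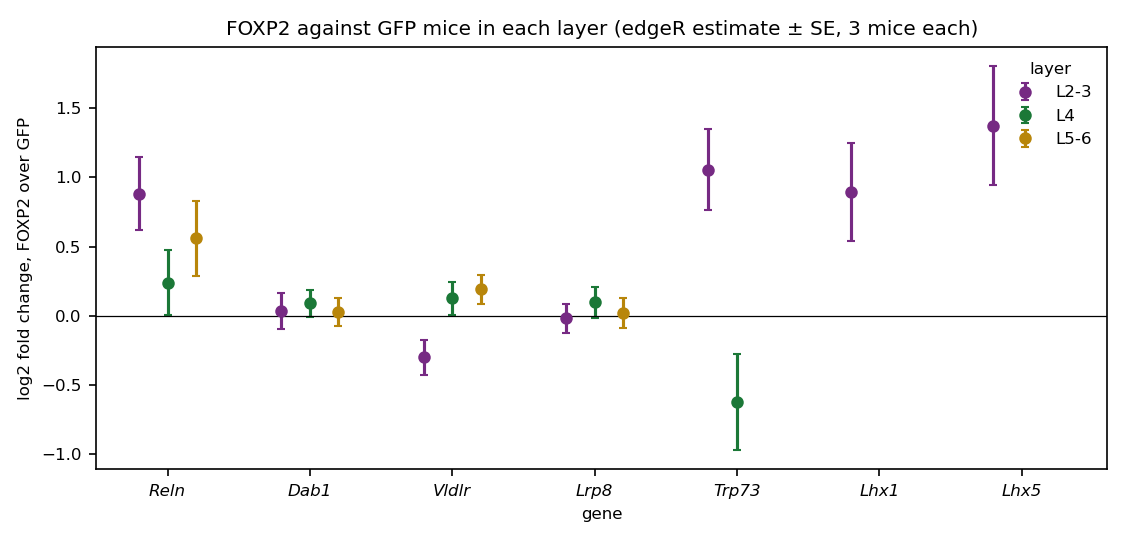
Log2 fold change of FOXP2 over GFP mice (vertical axis, points are edgeR estimates and bars SE, 3 mice in each group) for the 7 genes in L2-3, L4 and L5-6, with no point where a gene had too few counts to be tested. Trp73, Lhx1, Lhx5 and Reln lie between 0.88 and 1.37 in L2-3, and no point passed the adjusted threshold.

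Other genes that mark tissue near the pia were compared between the same L2-3 libraries. Ebf3 had 3.33 to 5.41 CPM in FOXP2 mice against 2.16 to 3.02 in GFP mice, and Nhlh2 4.12 to 7.46 against 2.31 to 3.08. These groups did not overlap, nor did those of Cacna2d2 and Cxcr4, where 11.6% of all genes had every FOXP2 mouse higher. Calb2, Ebf2, Barhl2, Tbr1 and Eomes of the same list overlapped, as did the member Lhx1. Ndnf had 106 to 141 CPM against 36.8 to 77.4. Over the 11 Cajal-Retzius markers tested, 0 passed the adjusted threshold. An unadjusted p under 0.05 was reached by 8 higher and 1 lower (Tbr1, -0.38), against 15.8% of all genes. Of the 8, 4 were members, among them Lhx5, which reached the filter level mainly in FOXP2 libraries. The summed level of the 12 markers other than Reln was 123 to 170 CPM against 114 to 144 CPM, so these sums overlapped. The 11 meningeal markers summed to 1436 to 4431 CPM against 418 to 1957 CPM, sums that overlapped, with 11 of 11 estimates above 0 and 0 called. The 14 interneuron markers summed to 478 to 526 CPM against 306 to 400 CPM, with 12 of the 12 tested above 0 and 0 called. Over all genes the median estimate was -0.01 and 0.131% were called, and the share of estimates above 0 was not computed. The 7 markers of layers 2-3 summed to 1058 to 1101 CPM against 1416 to 1573 CPM, and the 6 of layer 4 to 422 to 522 CPM against 620 to 852 CPM. Their part in the differences of Reln, Trp73, Lhx1 and Lhx5 was not tested.

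These lists did not order the 6 mice alike. The moFoxp2 mouse was highest in L2-3 for Reln, Trp73, Lhx1, Lhx5, Ebf3, Nhlh2 and Ndnf, whereas Ptgds, a gene of the inner meninges, had 14.3 CPM there against 2426 and 1664 CPM in the huFOXP2 mice. GFP mouse 1 had 10.2 CPM of Ptgds, and GFP mice 2 and 3 had 813 and 911 CPM. Collagens of the meninges were not low in L2-3 of the moFoxp2 mouse, which had 366 CPM of Col1a1 and 570 CPM of Col1a2. The huFOXP2 mice had 377 and 225 CPM of Col1a1 and 749 and 438 CPM of Col1a2. In GFP mouse 1 Col1a1 was at 75.2 CPM in L2-3, where the other 5 mice had 168 to 377 CPM.

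**Figure D5:**
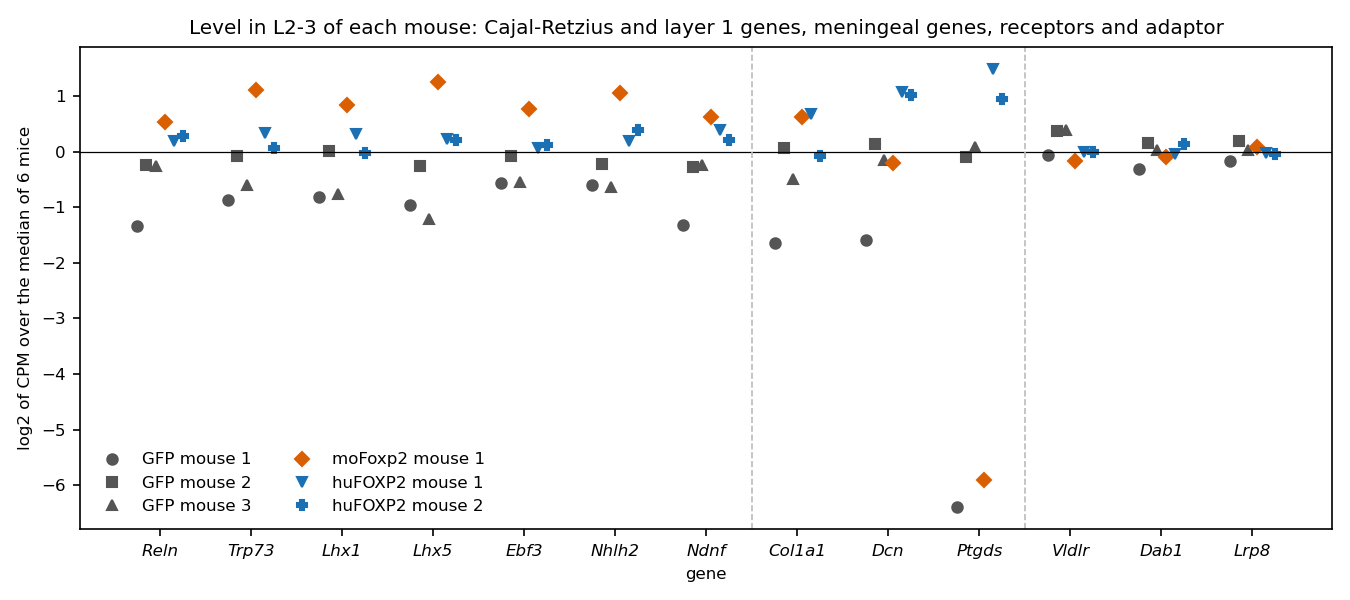
Level in L2-3 of each mouse as log2 of its CPM over the median of the 6 mice (vertical axis) for Cajal-Retzius and layer 1 genes (left), meningeal genes (middle) and the receptors and adaptor (right), with 1 symbol per mouse. The moFoxp2 mouse is highest for all 7 genes on the left, and only it and GFP mouse 1 are far below the median for Ptgds, at 14.3 and 10.2 CPM.

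In L4, where the labels place the GFP-positive cells, 0 of the 5 genes tested passed the threshold in edgeR (0.0275% of 14544 genes did), 0 had an unadjusted p under 0.05 (3.11% of all genes) and DESeq2 called 0 (0.177% of all genes). Lhx1 and Lhx5 had too few counts for this test. Reln had 107, 237 and 199 CPM in GFP mice 1 to 3 against 192 CPM in the moFoxp2 mouse and 234 and 217 CPM in the huFOXP2 mice, so the groups overlapped. Its log2 fold change was 0.24 ± 0.23 and became -0.019 without GFP mouse 1. Trp73 had 2.21, 1.62 and 1.41 CPM in the GFP mice, 0.726 CPM in the moFoxp2 mouse and 1.40 and 1.18 CPM in the huFOXP2 mice. The FOXP2 mice were all lower by a narrow margin, as in 3.86% of all genes, with a log2 fold change of -0.62 ± 0.34 (adjusted p = 0.9999). Vldlr was 0.13 ± 0.12, Lrp8 0.10 ± 0.11 and Dab1 0.09 ± 0.09 on the log2 scale.

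In L5-6, 0 of the 4 genes tested passed the threshold in edgeR (0.0196% of 15330 genes did), 0 had an unadjusted p under 0.05 (6.12% of all genes) and DESeq2 called 0 (0.301% of all genes). Reln had 53.5, 113 and 128 CPM in the GFP mice against 142 CPM in the moFoxp2 mouse and 139 and 156 CPM in the huFOXP2 mice. All FOXP2 mice were higher, as in 6.71% of all genes, with a log2 fold change of 0.56 ± 0.27 (adjusted p = 0.716) that was 0.27 without GFP mouse 1. Vldlr was 0.19 ± 0.10 (adjusted p = 0.716), Dab1 0.03 ± 0.10 and Lrp8 0.02 ± 0.11.

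Whether the FOXP2 difference itself varied with the layer was tested in 1 model over the 18 libraries with mouse as a block. Between L5-6 and L2-3 it did for Vldlr and Trp73, that is 1 of the 7 genes with a more positive difference in L5-6 and 1 with a more negative one, where 6.38% and 8.16% of 16305 genes were called in these directions. Vldlr had a log2 ratio of L5-6 over L2-3 of -0.44, -0.77 and -0.67 in the GFP mice, -0.01 in the moFoxp2 mouse and -0.07 and -0.33 in the huFOXP2 mice. The fall of Vldlr into the deep layers was smaller in each FOXP2 mouse than in any GFP mouse, a difference of 0.48 ± 0.12 (adjusted p = 0.0190). The call was lost without GFP mouse 3, the moFoxp2 mouse or huFOXP2 mouse 1 (adjusted p 0.0739, 0.0685 and 0.106) and without the mouse block (0.157).

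Trp73 had log2 ratios of L5-6 over L2-3 of -1.33, -2.56 and -2.96 in the GFP mice, computed on CPM with 0.5 added, a scale that understates the change of a low gene. The moFoxp2 mouse had -4.55, and the huFOXP2 mice -4.59 and -3.46. The fall was steeper in each FOXP2 mouse, with a fitted difference of -2.61 ± 0.67 (adjusted p = 0.0238). It rested on few reads in L5-6: 27, 27 and 9 counts in the GFP libraries and 7, 1 and 10 in the FOXP2 libraries. Trp73 reached the filter level in all L2-3 and L4 libraries but in only 2 of 6 in L5-6, where it was not tested alone. The call was lost without GFP mouse 1, the moFoxp2 mouse or huFOXP2 mouse 1 (adjusted p 0.0644, 0.0621 and 0.0912) and without the mouse block (0.0765). In the same L5-6 libraries Eomes, a gene of intermediate progenitors that is also on the Cajal-Retzius list, had 2.42, 2.29 and 0.307 CPM in the GFP mice against 0.0681 to 0.280 CPM in the FOXP2 mice. The 6 hippocampal markers summed to 190 CPM in GFP mouse 1 and to 110 to 146 CPM in the 5 other mice. Their part in the Trp73 difference was not tested.

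Between L4 and L2-3 edgeR called 0 of 16305 genes for a layer-dependent FOXP2 difference, with 17.3% of genes and 3 of the 7 members at an unadjusted p under 0.05, while DESeq2 called 542 genes (4.61%), among them Reln and Vldlr. Reln fell from L2-3 to L4 by 0.57 to 0.81 on the log2 scale in the GFP mice. In the FOXP2 mice the log2 ratio of L4 over L2-3 was -1.64, -1.03 and -1.22, each below that of every GFP mouse (difference -0.65 ± 0.15, edgeR adjusted p = 0.0649, DESeq2 adjusted p = 0.00476). Vldlr had log2 ratios of L4 over L2-3 of -0.02, 0.00 and -0.07 in the GFP mice, 0.55 in the moFoxp2 mouse and 0.40 and 0.26 in the huFOXP2 mice. The groups did not overlap (0.42 ± 0.12, edgeR adjusted p = 0.103, DESeq2 adjusted p = 0.0365). Dab1 (0.04 ± 0.13) and Lrp8 (0.11 ± 0.08) did not pass under either tool.

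Of the 51 other pathway genes, 0 passed in edgeR between FOXP2 and GFP mice in any layer, with 7, 1 and 4 at an unadjusted p under 0.05 in L2-3, L4 and L5-6, against 15.8%, 3.11% and 6.12% of all genes. Those of smallest p in L2-3 were Plat (0.50 ± 0.12, adjusted p = 0.105), the phosphoinositide kinase subunit Pik3r1 (-0.44 ± 0.11, adjusted p = 0.122) and Itgb1 (0.41 ± 0.12, adjusted p = 0.148). The FOXP2 difference varied between L5-6 and L2-3 for 13 of the 51. It was more positive in L5-6 for 6 (6.38% of all genes), among them Pafah1b1 (0.48 ± 0.09, adjusted p = 0.0111) and Dcx (0.55 ± 0.15, adjusted p = 0.0249). It was more negative for 7 (8.16% of all genes), among them Plat (-0.92 ± 0.18, adjusted p = 0.0115), Nrp1 (neuropilin-1, -0.87 ± 0.18, adjusted p = 0.0127) and Apoe (-0.82 ± 0.19, adjusted p = 0.0165). Without the mouse block 0 of all genes were called in this comparison.

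Genes of like pattern were sought over the 18 libraries by Pearson's r of log2(CPM + 0.5) among 14330 genes, as a description, since libraries of a mouse and of a layer are not independent. Closest to Reln were Maged2 (r = 0.96), Ckap4 (0.95) and Eda (0.92), which after removal of the layer means kept r = 0.91, 0.87 and 0.79. Closest to Trp73 were Gpx7 (0.97), the transcription factor Sp5 (0.96) and Serpinf1 (0.95), and with layer means removed these were at 0.90, 0.71 and 0.74. Vldlr was closest to Slco5a1 (0.97), the potassium channel Kcnd2 (0.96) and the phosphatase subunit Ppp2r5e (0.96). Dab1 was closest to Eda, Pcdh8 and Eef1a1 (0.95 each). Lrp8 was closest to Cpeb2 (0.89), Nedd4l (0.89) and Ppp1r9a (0.88). Among the members themselves, Reln correlated with Dab1 at r = 0.87, and at 0.60 once layer means were removed. Reln and Trp73 were at 0.72, and at -0.03 with layer means removed. This last value pools layers in which the order of the mice differed. In L2-3 both genes were lowest in GFP mouse 1 (165 and 5.74 CPM) and highest in the moFoxp2 mouse (602 and 22.7 CPM). In L4 and L5-6 GFP mouse 1 was again lowest for Reln (107 and 53.5 CPM). It was highest there for Trp73 (2.21 and 1.98 CPM), on 23 and 27 counts. Correlation within single layers was not tested.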

How the data were processed

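RNA sequencing was done on total RNA of 18 libraries (3 layers of 6 mice, Illumina TruSeq per the labels' protocols). The deposited values are raw counts per gene, made by the authors with STAR, HTSeq and mm10, per the submitters' processing notes. The sources used here do not state versions, gene models or whether strand was used. Groups came from sample titles. Totals were 10111149 to 23404528 counts. No replicate pair agreed within counting error (chi-square per degree of freedom at least 8.89 over 12 pairs).

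Counts were tested with edgeR 4.0.16 (R 4.3.3): TMM, filterByExpr (minimum count 10, minimum total 15), robust quasi-likelihood fit, Benjamini-Hochberg adjustment over all genes tested, threshold 0.05. Layers were compared over all 18 libraries with mouse as a block, because the labels pool layers within a mouse; deviations of layers of 1 mouse correlated at 0.269 to 0.692. FOXP2 and GFP mice were compared per layer. CPM are scaled by TMM factors. Low values were not imputed and no sample was dropped. Alternatives were RLE factors, no filter, DESeq2 1.42.0, leaving out each mouse, blocks, other sample sets and huFOXP2 alone. Scripts were tested on simulated data.

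The 7 members were always described. Of the pathway lists, up to 4 genes per list and direction with smallest p past the threshold were open to naming, or the 3 of smallest p where none passed; of cell type lists, all Cajal-Retzius markers and up to 3 others by level. Foxp2, the electroporated gene, and Ndnf fall outside this rule, and their values were known when they were picked. Members and lists were chosen with earlier results of these data known. Positions are from GENCODE M21 (53229 of 54446 identifiers matched with version), promoters from RefSeq GRCm38.p6.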

Additional observations from a re-analysis of the deposited data

Results flagged for a closer look

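Of 21 groups of 6 mice (7 genes in 3 layers), 3 held a mouse far from the others. The rule flags about 1 in 20 groups of independent, normally distributed values. These groups share mice, so their number cannot be set against that rate. GFP mouse 1 was lowest in L4 for Reln (107 CPM, the other mice 192 CPM or more) and for Vldlr (141 CPM, the others 180 CPM or more). In L5-6 huFOXP2 mouse 2 was highest for Lhx1, at 0.0550 CPM from a single count, where the other mice were at 0. Such a group always meets the rule.

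The FOXP2 difference was unlike in L5-6 and in L2-3, by the test of that difference in edgeR, for Vldlr (0.48) and Trp73 (-2.61, on 1 to 27 counts in L5-6) among the members. Of the named pathway genes it was more positive in L5-6 for Pafah1b1 (0.48), Pik3r1 (0.66), Cdk5r1 (0.39) and Dcx (0.55). It was more negative for Nrp1 (-0.87), Nde1 (-0.62), Notch1 (-1.01), Crkl (-0.48), Plat (-0.92), Clu (-0.80) and Apoe (-0.82), all on the log2 scale.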

How the results depend on the processing

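Counts of genes called between FOXP2 and GFP mice moved with most choices, and the cause was not tested. In L2-3, 20 genes were called, and 10 with RLE factors, 686 without the filter on low counts, 713 with DESeq2, 46 in 1 fit over the 18 libraries and 3 with huFOXP2 mice only. Of the members 0 were called, 1 (Trp73) without the filter and 2 with DESeq2. Leaving out single mice gave 2 to 382 genes (382 without GFP mouse 1) and 0 to 2 members. In L4, 4 genes were called, 108 without the filter, 29 with DESeq2 and 3 to 6 without single mice. In L5-6, 3 genes were called, 71 without the filter, 57 with DESeq2, 17 in 1 fit over the 18 libraries and 2 to 4 without single mice. The mouse numbers were not taken to pair GFP with FOXP2 mice in the main tests. Deviations of same-numbered GFP and huFOXP2 mice correlated at -0.269 to 0.191, over numbers 1 and 2 only. So few mice cannot settle whether the numbers stand for a shared litter or batch. With a replicate block over numbers 1 and 2, counts were 6 in L2-3, 7 in L4 and 7 in L5-6, and 4 in L2-3 for the same libraries without the block.

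Between layers, the member counts include Lhx1 and Lhx5, which reached the filter level on low counts in L2-3 libraries only. Calls of these genes add nothing. With all mice 38.1% of genes were called in L5-6 against L2-3, 35.3% in L4 against L2-3 and 34.8% in L5-6 against L4. L5-6 against L2-3 kept 7 members called without each single mouse, with 4679 to 7013 genes (6080 with all mice). In the GFP mice alone it called 3676 genes. L4 against L2-3 gave 3680 to 7278 genes and 4 to 6 members without single mice (3680 without the moFoxp2 mouse), and 1001 genes and 3 members in the GFP mice alone. L5-6 against L4 gave 3668 to 5323 genes and 4 to 5 members without single mice (3668 without GFP mouse 3). It gave 3562 genes and 3 members without the mouse block, 3561 and 2 in the GFP mice alone, and 3193 and 3 in the FOXP2 mice alone. These last sets hold fewer libraries.

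The FOXP2 difference between L5-6 and L2-3 called 2371 genes and 2 members, 0 and 0 without the mouse block, and 1 to 3359 genes and 0 to 2 members without single mice (1 without huFOXP2 mouse 1, 3359 without GFP mouse 2). Between L4 and L2-3 it called 0 genes, 1 with RLE factors, 1326 without the filter and 542 with DESeq2, with 3 and 2 members in these last 2, and 0 to 87 genes without single mice.

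Values that changed sign lay mostly near 0 and none had passed the test. Leaving out single mice, the difference between FOXP2 and GFP mice in L2-3 was -0.077 to 0.12 for Dab1 and -0.090 to 0.061 for Lrp8, which was 0.00093 with the replicate block. In L4 it was -0.019 to 0.48 for Reln. In L5-6 it was -0.030 to 0.081 for Dab1 and -0.037 to 0.095 for Lrp8. There the huFOXP2 mice alone gave -0.030 for Dab1 and -0.037 for Lrp8, and numbers 1 and 2 without the block gave -0.0057 for Lrp8. Vldlr in L4 against L2-3 was -0.015 in the GFP mice alone. For the difference between L5-6 and L2-3, leaving out single mice gave -0.12 to 0.10 for Dab1 (0.0015 without the filter), -0.99 to 1.78 for Lhx1 and -2.72 to 0.72 for Lhx5, the last 2 on the few counts of L5-6. Between L4 and L2-3 it gave -0.039 to 0.16 for Dab1. RLE factors moved the median of all genes by at most 0.02.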
